A study of Mus musculus with 6 samples.

Results

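The mitochondrially encoded genes are the genes carried on the small circular chromosome (MT) inside the mitochondrion. They were taken as all rows of the expression table placed on chromosome MT, which gave 37 of the 54532 genes listed: 13 protein genes, 2 ribosomal RNA (rRNA) genes and 22 transfer RNA (tRNA) genes. The hearts of 3 Mc4r KO mice and 3 WT mice, all 12 weeks of age, were compared by sequencing of polyadenylated RNA, with 1 library per mouse. Mc4r encodes the melanocortin 4 receptor, a receptor of the brain that restrains feeding, and the study asked what its loss does to the heart at an early stage. The Mc4r KO mice were homozygous for the knockout and the WT mice were their littermates, bred from heterozygous parents on a C57B/6/N background, and both groups ate standard chow. The sources differed on the tissue, which was heart or muscle in the labels and left ventricle in the discussion of the paper, and the labels gave no sex, while that discussion calls the mice of its heart function measurements male.

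The MT chromosome is transcribed from both strands into long precursors that span most of its length. The tRNAs lie between the other genes and are cut out, which releases the mRNAs and the rRNAs, and most of the mRNAs then receive a short poly(A) tail. The 13 proteins are subunits of the respiratory complexes I, III and IV and of ATP synthase, all of which also need subunits encoded in the nucleus, and the heart depends on these complexes for nearly all of its ATP. The 2 rRNAs and the 22 tRNAs serve the ribosomes that translate these mRNAs within the organelle.

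Between 14691076 and 16047003 reads per library were counted on genes. The knocked-out gene itself had 2 reads in WT replicate 3 and 0 in the other 5 libraries, so its level could not check the genotypes at this depth. Markers of heart muscle were present in all 6 libraries. Levels are given in FPKM, fragments per kilobase of gene scaled between libraries. The summed FPKM of 12 cardiomyocyte markers was 16225 to 17805 in WT and 19847 to 21648 in Mc4r KO. WT replicate 3 stood apart from the other WT libraries. It held the most RNA of the atrial gene Myl7, at 307 FPKM. Myl7 was at 0.240 and 28.1 FPKM in the other WT libraries and at 38.8, 0.558 and 0.528 in the 3 Mc4r KO libraries. The 7 atrial markers summed to 160 to 941 FPKM in WT and 163 to 301 in Mc4r KO, and 8 erythrocyte markers summed to 861 to 6353 in WT and 621 to 1654 in Mc4r KO. In the paper's sequencing summaries, WT replicates 1 and 2 differed from the other libraries. Their reads had a lower GC content, a larger share mapped to several places and a smaller share spliced. WT replicate 3 was near the Mc4r KO libraries in these read measures. The part of these markers and read measures in the results was not tested. In whole tissue, fewer cells of a type and less RNA per cell cannot be told apart.

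The sequences of 3 tRNA genes and of the start of 1 protein gene are shown for the results described later. The genes mt-Tg (tRNA of glycine, MT 9391 to 9458) and mt-Tr (tRNA of arginine, MT 9808 to 9875) were the 2 that passed the test, and for comparison mt-Tp (tRNA of proline, MT 15356 to 15422, minus strand) had the most reads of all tRNA genes. The letters are those of GENCODE M21 on GRCm38, the build that corresponds to the mm10 of the deposited table, and all 37 genes had the same positions in both. Capitals mark the anticodon, the bases that read the codon.
mt-Tg: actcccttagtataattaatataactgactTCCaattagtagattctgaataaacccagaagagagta
mt-Tr: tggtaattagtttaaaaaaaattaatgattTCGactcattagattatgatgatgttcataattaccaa
mt-Tp: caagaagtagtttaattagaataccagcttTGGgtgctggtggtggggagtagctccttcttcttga
The genes mt-Tg and mt-Tr lie on either side of mt-Nd3, with 0 bases between mt-Tg and mt-Nd3 and 1 base between mt-Nd3 and mt-Tr. In mt-Tr, a run of 8 A bases starts at base 14.

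A stretch of 4649 bases of the MT chromosome, from position 6394 to 11042, is bounded by bases that are also found in annotated nuclear transcripts on chromosome 1, between 24611535 and 24616197. There, 7 annotated copies of MT genes lie on the minus strand, and the shared stretch was found as words of 50 bases common to the MT genes and the nuclear transcripts. Of the 37 genes, 11 lie inside this stretch (6 protein and 5 tRNA genes), 2 cross its ends (mt-Co1 and mt-Nd4) and 24 lie outside it. Only annotated transcripts could be compared. They covered 7 protein genes, while mt-Atp8 and the 5 tRNA genes inside shared no word with them and were placed inside by position alone. The copies of mt-Co2, mt-Atp6, mt-Co3, mt-Nd4l and mt-Nd4 did not differ from the MT gene at any aligned base. The copy of mt-Nd3, Gm28438, differed at 1 of 345 bases, T3C, where the MT gene's base comes first and position 3 is counted from the start of the gene (MT position 9461). The first 30 bases of both are given with the differing base in capitals, at MT 9459 to 9488 and at chr1:24613090-24613119 on the minus strand.
mt-Nd3: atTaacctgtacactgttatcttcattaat
Gm28438: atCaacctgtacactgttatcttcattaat
Reads from such places can be given to the MT gene, to the copy or to neither, so the values of the genes with a copy are uncertain. For mt-Tg and mt-Tr no annotated copy was found, and the chromosome 1 sequence facing them was not analysed here. Whether WT and Mc4r KO mice carried the same MT sequence was not tested, since the deposited values hold no bases, so for mt-Tg, mt-Tr and mt-Nd3 a difference in sequence and a difference in level cannot be told apart.

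The mitochondrial genes took a smaller share of the RNA in the Mc4r KO hearts. Of the reads on genes, MT genes held 34.9%, 32.6% and 26.3% in WT and 23.3%, 25.8% and 23.4% in Mc4r KO, each time in the order of replicates 1, 2 and 3, which is kept throughout. The 3 Mc4r KO libraries were below all WT libraries, and WT replicate 3 was close to the highest of them. The mean share was 31.3% ± 4.45 (SD, n = 3) in WT and 24.2% ± 1.45 in Mc4r KO, a difference of -7.10 percentage points (two-sided exact permutation p = 0.1, which is the smallest that 3 against 3 mice allow). Without WT replicate 3 the difference was -9.58 points. Of the summed FPKM, in which short genes weigh more per read, MT genes held 54.6% ± 6.57 in WT and 44.4% ± 1.91 in Mc4r KO, a difference of -10.2 points with the same exact permutation p of 0.1.

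**Figure D1:**
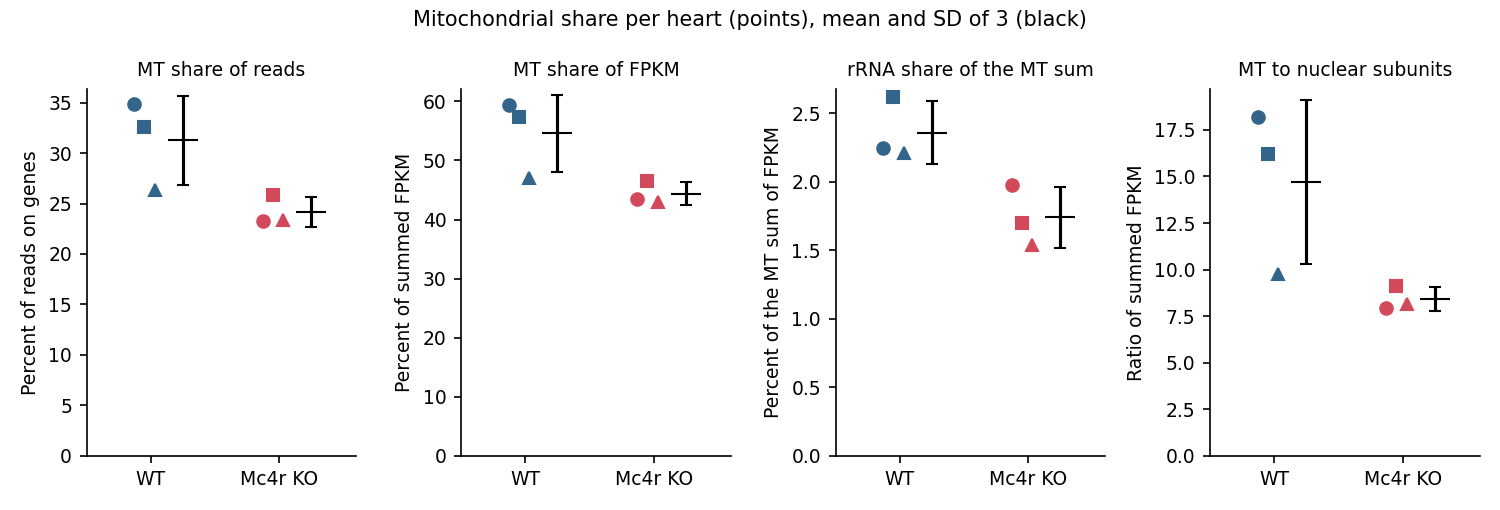
The panels plot, for each library, the MT share of reads on genes, the MT share of summed FPKM, the rRNA share of the MT sum, and the ratio of the summed FPKM of 13 MT-encoded to 71 nuclear-encoded subunits. Points are libraries (circle, square and triangle for replicates 1, 2 and 3), and black marks give the mean and SD of 3. In each panel the 3 Mc4r KO points lie below the 3 WT points, and in all panels but that of the rRNA share WT replicate 3 lies close to the Mc4r KO points.

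Most of the MT genes had lower fitted values in Mc4r KO, but only 2 passed the test. On the FPKM as deposited, 24 of the 36 MT genes tested had a log2 fold change below 0, and the median was -0.39, beside -0.01 over all 18035 genes tested. The median stayed below 0 under the other scalings, at -0.14 after quantile normalization, which set the differences of mt-Co1, mt-Cytb, mt-Nd1 and mt-Nd2 to 0, -0.28 with the sum of all genes set equal and -0.58 with the sum outside the MT chromosome set equal, while the median of all genes was -0.01, 0.08 and -0.19. The gene left out, mt-Tf, had 0 reads in all 6 libraries. Called genes, with an adjusted p under 0.05 in limma (Benjamini-Hochberg over all genes) and an absolute log2 fold change above 0.75, were mt-Tg and mt-Tr, both lower. Over all genes, 0.46% were called in either direction and 0.144% were called lower. At an unadjusted p under 0.05, 9 of the 36 were lower, beside 8.83% of all genes. The Mc4r KO values lay below all WT values for 8 MT genes (mt-Rnr1, mt-Rnr2, mt-Co2, mt-Nd6, mt-Tw, mt-Tq, mt-Tg and mt-Tr), or 22.2%, beside 12.4% of all genes. The count of calls rested on WT replicate 3. Without it, 12 MT genes were called, 11 lower and 1 higher, and calls over all genes went from 83 to 726.

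Expressed as shares of the MT sum, the same 2 genes were called and the other MT genes were spread around no difference. This scale asks whether the makeup of the mitochondrial RNA differed, since it removes a shift common to all MT genes. The median log2 fold change of the 36 genes was 0.01, while the median over all genes moved to 0.39. Of the 36, 16 were below 0 and 20 above. Over all genes, 0.427% were called on this scale. The groups did not overlap for 9 of the 36 genes, or 25.0%, beside 30.4% of all genes. These 9 were mt-Rnr1, mt-Rnr2, mt-Tg and mt-Tr with lower shares and mt-Cytb, mt-Nd4, mt-Tl1, mt-Ty and mt-Tl2 with higher shares. Without WT replicate 3, 8 of the 36 MT genes were called on this scale, beside 4210 of 17966 over all genes. On this scale the counts over all genes include the move of their median away from 0. They are thus not a like background for the MT genes.

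**Figure D2:**
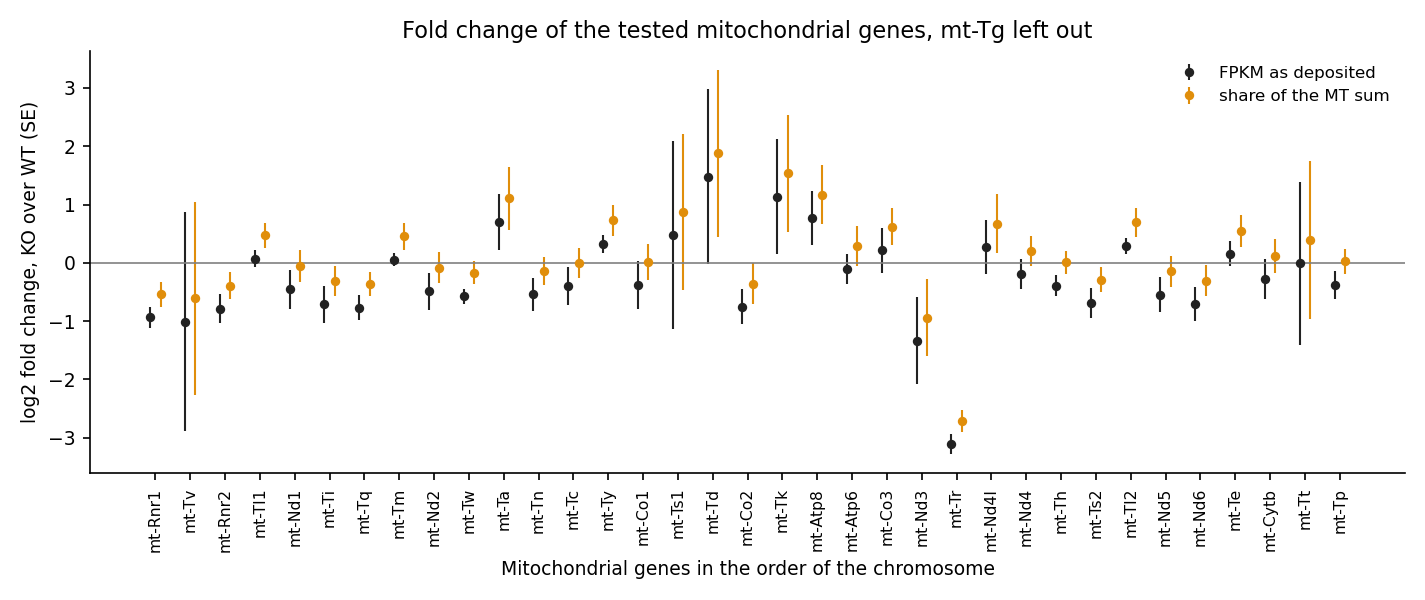
The log2 fold change of Mc4r KO over WT (points) with its standard error (bars) is plotted for 35 of the 36 tested MT genes, in their order along the chromosome, in black for FPKM as deposited and in orange for shares of the MT sum. The gene mt-Tg is left out because its fitted fold against nearly empty Mc4r KO libraries depends on the pseudocount, and mt-Tr, at -3.10 and -2.70, stands below the others.

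Complex I, which takes electrons from NADH, has 7 MT-encoded subunits, and none of them passed the test. The most abundant, mt-Nd1, had 43822, 36988 and 28005 FPKM in WT and 24634, 30528 and 23410 in Mc4r KO (log2 fold change -0.46, SE 0.34, limma adjusted p = 0.493). The groups overlapped, because Mc4r KO replicate 2 was above WT replicate 3. The levels of mt-Nd2 were 30475, 27665 and 18700 FPKM in WT and 16052, 20406 and 17505 in Mc4r KO, and those of mt-Nd5 were 22286, 22635 and 13402 in WT and 11961, 13886 and 13145 in Mc4r KO. In both genes WT replicates 1 and 2 were high and WT replicate 3 lay among the Mc4r KO libraries. Their log2 fold changes were -0.49 (SE 0.31) and -0.54 (SE 0.30).

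The gene mt-Nd6 is the only protein gene read from the minus strand. It had 21609, 21797 and 12734 FPKM in WT and 11661, 11310 and 10517 in Mc4r KO, and the groups did not overlap (log2 fold change -0.70, SE 0.30, limma adjusted p = 0.239). It overlaps mt-Nd5 by 14 bases on the opposite strand, and the use of strand in counting is not given in the sources used here, so reads of both strands at mt-Nd6 cannot be told apart. Without WT replicate 3, mt-Nd5 and mt-Nd6 were called, at -0.79 and -0.96.

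The remaining complex I genes lie in or across the shared stretch. The gene mt-Nd4 had 18095, 16610 and 14300 FPKM in WT and 12575, 15876 and 14445 in Mc4r KO, and the groups overlapped (log2 fold change -0.19, SE 0.25). The gene mt-Nd4l had 2601, 2480 and 6576 FPKM in WT and 2707, 6496 and 4265 in Mc4r KO (0.27, SE 0.46). WT replicate 3 and Mc4r KO replicate 2 were the high libraries, one in each group. It shares 7 bases with mt-Nd4.

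The gene mt-Nd3 varied widely within the Mc4r KO group. It had 3092, 3853 and 5878 reads in WT and 1189, 6048 and 661 in Mc4r KO, or 630, 771 and 992 FPKM against 220, 1144 and 118. Mc4r KO replicate 2 was the highest of all 6 libraries and the other Mc4r KO libraries were the lowest, so the log2 fold change of -1.34 had an SE of 0.75 (limma adjusted p = 0.357). Its nuclear copy, Gm28438, had 979, 2127 and 659 reads in WT and 2410, 2731 and 2123 in Mc4r KO. The copy thus held 24.05%, 35.6% and 10.1% of the reads of the pair in WT and 67.0%, 31.1% and 76.3% in Mc4r KO. Because mt-Nd3 reads are part of the pair, a low mt-Nd3 count in itself raises the copy share. Mc4r KO replicate 2 had the most reads of both mt-Nd3 and Gm28438. With the reads of the copy added to mt-Nd3, the log2 fold change was -0.33 (SE 0.42, limma adjusted p = 0.695).

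Complex III passes electrons to cytochrome c, and mt-Cytb, its cytochrome b, is its only MT-encoded subunit. Its levels were 48665, 41500 and 32906 FPKM in WT and 30440, 37249 and 32713 in Mc4r KO, with overlapping groups (log2 fold change -0.28, SE 0.34, limma adjusted p = 0.682). As a share of the MT sum it was 15.4%, 14.3% and 15.1% in WT and 15.9%, 16.2% and 16.6% in Mc4r KO. On that scale the Mc4r KO values were all above WT, by a log2 fold change of 0.12 (SE 0.29) that did not pass the test.

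Complex IV, cytochrome c oxidase, has its 3 catalytic-core subunits encoded on the MT chromosome. The gene mt-Co1, the most abundant of all 37, had 88525, 81949 and 60734 FPKM in WT and 55224, 64590 and 55513 in Mc4r KO (log2 fold change -0.38, SE 0.41, limma adjusted p = 0.629), and WT replicate 3 was below Mc4r KO replicate 2. Its share of the MT sum was 28.1% ± 0.147 in WT and 28.4% ± 0.483 in Mc4r KO (SD, n = 3). The gene mt-Co2 had 5059, 10169 and 6151 FPKM in WT and 4167, 3285 and 4807 in Mc4r KO, and all Mc4r KO libraries were below WT (log2 fold change -0.76, SE 0.30, limma adjusted p = 0.219). With its chromosome 1 copy added, the difference was -0.51 (SE 0.26). The gene mt-Co3 had 6757, 2929 and 2652 FPKM in WT and 3818, 5787 and 3744 in Mc4r KO (0.22, SE 0.38), where WT replicate 1 was the highest library and the other WT libraries the lowest.

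ATP synthase makes ATP from the proton gradient, and its 2 MT-encoded subunits form part of the proton channel or stand beside it in the membrane. The gene mt-Atp6 had 3457, 3171 and 5411 FPKM in WT and 2981, 4413 and 3604 in Mc4r KO (log2 fold change -0.11, SE 0.26). The gene mt-Atp8 had the fewest reads of the protein genes, 111, 108 and 379 in WT and 199, 441 and 284 in Mc4r KO, and its groups overlapped (0.77, SE 0.46, limma adjusted p = 0.392). Both were highest in WT at replicate 3. They share 43 bases, so part of the reads cannot be given to one of them.

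Sums over the complexes were close between the groups once taken as shares of the MT sum. Complex I held 44.1% ± 0.445 in WT and 42.5% ± 0.741 in Mc4r KO, and complex III held 15.0% ± 0.585 and 16.2% ± 0.327. In these 2 sums the groups did not overlap. Complex IV held 32.2% ± 0.501 and 32.5% ± 0.566 and ATP synthase held 1.58% ± 0.827 and 1.81% ± 0.198, both with overlapping groups. These sums were not tested. Reads of mt-Co1, mt-Co2, mt-Co3, mt-Atp6, mt-Nd3, mt-Nd4 and mt-Nd4l can go to their chromosome 1 copies. The sums of complexes I and IV and of ATP synthase are therefore uncertain. For them, little RNA and reads given to a copy cannot be told apart.

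**Figure D3:**
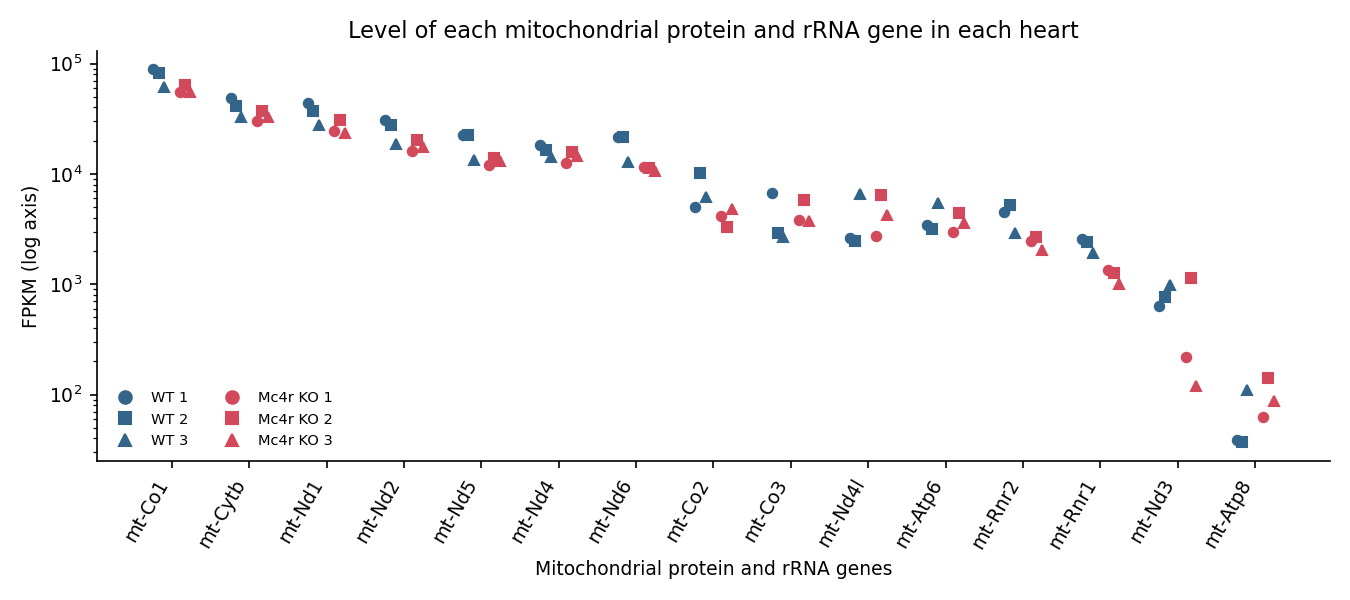
The FPKM of each of the 13 protein and 2 rRNA genes is plotted on a log axis, with genes ordered by mean level, blue for WT and red for Mc4r KO, and circle, square and triangle for replicates 1, 2 and 3. The levels run from mt-Co1, at 55224 to 88525 FPKM, to mt-Atp8, at 36.9 to 142 FPKM. For the most abundant genes WT replicates 1 and 2 are the highest points.

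The log2 fold changes of the protein genes outside the shared stretch were below those inside it in the median, though the ratio of their levels did not differ beyond its spread. All 5 outside had a log2 fold change below 0, with a median of -0.49, and of the 6 inside 3 were below 0, with a median of 0.06. Their log2 ratio (inside over outside, chosen after the data were seen) was -3.17, -2.94 and -2.27 in WT and -2.76, -2.41 and -2.55 in Mc4r KO. The difference was 0.22 (two-sided exact permutation p = 0.5), and WT replicate 3 was the highest of the 6 libraries. The difference was 0.033 without WT replicate 1 and 0.482 without WT replicate 3.

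The 2 ribosomal RNAs, mt-Rnr1 of the small and mt-Rnr2 of the large ribosomal subunit, were lower in all Mc4r KO libraries on both scales, without passing the test on either. The gene mt-Rnr1 had 2549, 2411 and 1913 FPKM in WT and 1332, 1253 and 1004 in Mc4r KO (log2 fold change -0.94, SE 0.18, limma adjusted p = 0.0663). The gene mt-Rnr2 had 4525, 5194 and 2895 FPKM in WT and 2442, 2653 and 2033 in Mc4r KO (-0.79, SE 0.25, limma adjusted p = 0.147). The groups did not overlap for either gene, and WT replicate 3 was the lowest WT library in both. Of 19 alternatives as deposited, mt-Rnr1 was called under 4 and mt-Rnr2 under 3. Both were called without WT replicate 3, at -1.06 and -1.04, with limma voom on the reads and with array weights. Only mt-Rnr1 was called with a mean FPKM of at least 1. Across the alternatives the limma adjusted p reached 0.222 for mt-Rnr1 and 0.392 for mt-Rnr2.

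The rRNA share of the MT sum was 2.24%, 2.62% and 2.21% in WT and 1.98%, 1.70% and 1.54% in Mc4r KO. Here WT replicate 2 was the highest library, WT replicate 3 was close to WT replicate 1, and all Mc4r KO libraries were lower. The means were 2.36% ± 0.228 and 1.74% ± 0.222 (SD, n = 3), a difference of -0.62 percentage points (two-sided exact permutation p = 0.1, the smallest possible), and -0.693 points without WT replicate 3. The rRNAs of the mitochondrion are only partly kept when RNA is chosen by its poly(A) tail, so their reads count those kept and not all rRNA molecules. Reads on nuclear rRNA genes were 26338, 7811 and 42902 in WT and 25064, 28469 and 37741 in Mc4r KO, with overlapping groups.

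The tRNA genes, whose mature products are short and carry no poly(A) tail, gave few reads. Their summed reads were 15782, 13595 and 11497 in WT and 11195, 11652 and 11213 in Mc4r KO, or 0.306%, 0.280% and 0.272% of MT reads in WT and 0.328%, 0.290% and 0.307% in Mc4r KO. Reads on tRNA genes can come from mature tRNA, from precursors or from the ends of the neighbouring mRNAs, and the counts do not separate these. The 8 tRNA genes of the minus strand held 80.0% to 85.6% of the tRNA reads in WT and 83.1% to 83.7% in Mc4r KO. Since the use of strand in counting is not given, reads of both strands at these genes cannot be told apart. Of the summed FPKM of MT genes, tRNA genes held 4.87% ± 0.338 in WT and 5.22% ± 0.328 in Mc4r KO (difference 0.351 points, two-sided exact permutation p = 0.3).

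The most reads among tRNA genes fell on mt-Tp (proline), with 4239, 4137 and 2984 reads in WT and 2962, 3176 and 2816 in Mc4r KO, and on mt-Tc (cysteine), with 4705, 3930 and 2345 in WT and 2723, 2941 and 2593 in Mc4r KO. Their log2 fold changes were -0.37 (SE 0.24) and -0.40 (SE 0.33), and the groups overlapped in both. The genes mt-Te (glutamate), mt-Tn (asparagine), mt-Tl1 (leucine) and mt-Ty (tyrosine) had log2 fold changes of 0.15, -0.54, 0.07 and 0.33 and did not pass the test. In shares of the MT sum, mt-Tl1 was at 0.236%, 0.191% and 0.301% in WT and 0.338%, 0.329% and 0.325% in Mc4r KO, and mt-Ty at 0.175%, 0.164% and 0.303% in WT and 0.371%, 0.332% and 0.319% in Mc4r KO. In both, the Mc4r KO libraries lay above WT and WT replicate 3 was the WT library nearest to them.

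The gene mt-Tr, the arginine tRNA, passed the test under all alternatives run. It had 52, 51 and 55 reads in WT and 5, 8 and 6 in Mc4r KO, or 54.2, 52.2 and 47.5 FPKM against 4.74, 7.74 and 5.50. The 3 WT libraries were nearly alike, WT replicate 3 included, and the Mc4r KO libraries were all far below them. The log2 fold change was -3.10 (SE 0.17, limma adjusted p = 0.00228) on the FPKM as deposited and -2.70 (SE 0.19, limma adjusted p = 0.00159) as a share of the MT sum. These SEs come from the spread of log2 FPKM, without use of the number of reads. They can lie below the counting error of 5, 8 and 6 reads. The 19 alternatives on the deposited scale gave log2 fold changes from -3.30 to -2.92. Set against mt-Nd4, which lies beyond mt-Nd4l and did not pass the test, mt-Tr had 0.156 ± 0.00800 reads per 1000 reads of mt-Nd4 in WT and 0.0205 ± 0.00311 in Mc4r KO (SD, n = 3).

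The gene mt-Tg, the glycine tRNA, was nearly absent from the Mc4r KO libraries, with 0, 1 and 0 reads, against 38, 248 and 84 in WT. The groups did not overlap, and WT replicate 2 had several times the reads of the other WT libraries. No fold is given, because the Mc4r KO libraries held 1 read together and WT replicate 2 held most of the WT reads. It was called on both scales (limma adjusted p = 0.0349 as deposited and 0.0124 as a share of the MT sum). The call on the deposited scale was less firm, since it was lost under 7 of the 19 alternatives, 4 of which left out 1 library (WT replicate 1 or 2, or Mc4r KO replicate 1 or 3). As a share of the MT sum, the call was lost under 2 of the 17 alternatives. These were no trend and robust empirical Bayes, and the limma adjusted p reached 0.0697.

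The other tRNA genes inside the stretch were too thinly read for a comparison. The gene mt-Ts1 had 0 to 8 reads in WT and 1 to 6 in Mc4r KO, mt-Td had 0 to 2 reads in each group, and mt-Tk had 1 read in all 6 libraries together. Outside it, mt-Tv and mt-Tt had at most 6 reads in any library. The 8 remaining tRNA genes lie outside the stretch and had log2 fold changes from -0.77 (mt-Tq) to 0.71 (mt-Ta), none of which passed the test. Among them mt-Tw (tryptophan) had 600, 579 and 574 reads in WT and 390, 369 and 462 in Mc4r KO, with no overlap (-0.57, SE 0.13, limma adjusted p = 0.0897). Of the 37 genes, 29 had 10 or more reads in every library and 30 were detected in all 6.

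**Figure D4:**
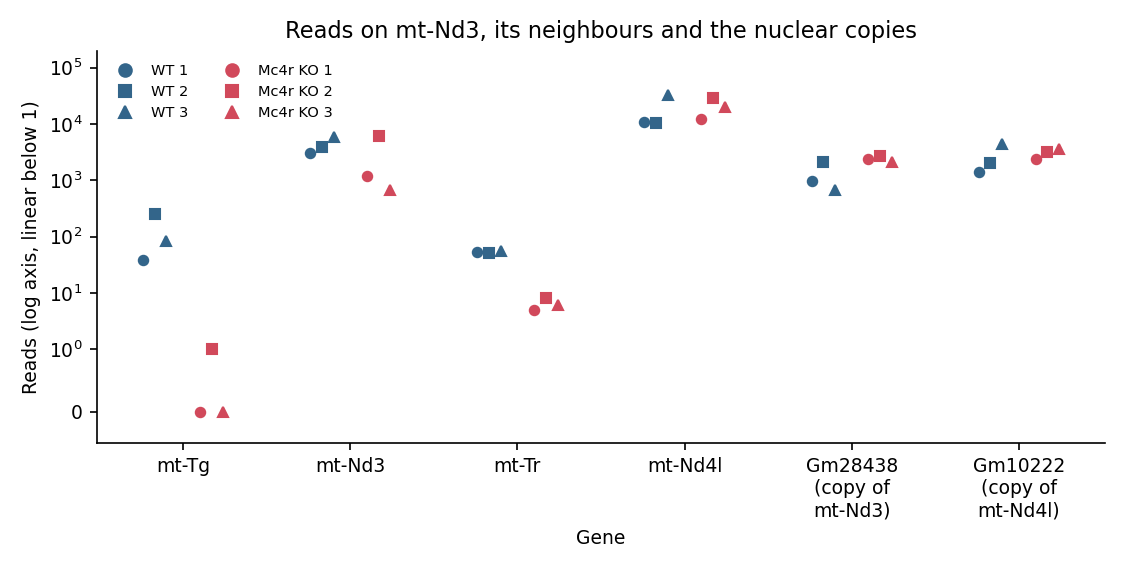
Reads per library on mt-Nd3, on the MT genes on either side of it and on the chromosome 1 copies of mt-Nd3 and mt-Nd4l are plotted on a log axis that is linear below 1, blue for WT and red for Mc4r KO. The groups are apart for mt-Tg and mt-Tr, while mt-Nd3 and mt-Nd4l overlap, and the Gm28438 copy lies at 659 to 2127 reads in WT and 2123 to 2731 in Mc4r KO.

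Over all 7 annotated copies on chromosome 1 the reads did not separate the groups, with 60136, 93492 and 68388 reads in WT and 62064, 91564 and 67613 in Mc4r KO. WT replicate 2 and Mc4r KO replicate 2 had the most. The copies of mt-Co2, mt-Co3 and mt-Atp6 held 16.4% to 25.7%, 9.04% to 36.0% and 24.03% to 49.9% of the reads of each pair in WT and 23.8% to 42.4%, 17.0% to 29.2% and 24.3% to 28.0% in Mc4r KO. The copies of mt-Co1 and mt-Nd4, which cover only part of those genes, held at most 0.766% and 3.12%. Other copies with 10 or more reads on average were Gm13340 of mt-Co1, Gm13341 of mt-Co2, Gm13339 of mt-Nd2 and Gm4076 of mt-Nd5.

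The nuclear subunits of the same complexes had higher values in Mc4r KO, opposite to the MT subunits, with no gene passing the test. Of 36 nuclear complex I subunits, 33 had a log2 fold change above 0 (median 0.36), as did 31 of 35 subunits of complexes III, IV and V (median 0.29), beside a median of -0.01 over all genes. With the sum outside the MT chromosome set equal, which moved the median of all genes to -0.19, these were 28 and 23 genes with medians of 0.17 and 0.09. The summed FPKM of the complex I subunits was 4168 to 5684 in WT and 6204 to 6671 in Mc4r KO, and that of the others was 11878 to 15118 in WT and 16006 to 16888 in Mc4r KO, so the Mc4r KO sums were above all WT sums. The same held for the sum of all genes outside the MT chromosome. It was 215739 to 244084 FPKM in WT and 247356 to 264423 in Mc4r KO. The complex I subunit Ndufa2 had 103, 123 and 324 FPKM in WT and 352, 390 and 365 in Mc4r KO (log2 fold change 1.20, SE 0.39, limma adjusted p = 0.155). The ATP synthase subunit Atp5k had 59.5, 52.7 and 263 FPKM in WT and 271, 318 and 292 in Mc4r KO (1.64, SE 0.56, limma adjusted p = 0.168). In both genes WT replicate 3 was near the Mc4r KO libraries and far from the other WT libraries. The same order was seen for Ndufb8 (0.95), Ndufb6 (0.94), the complex III subunit Uqcr11 (1.18) and the ATP synthase subunit Atp5e (0.97), none of which passed the test.

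The ratio of the summed FPKM of the MT-encoded to the nuclear-encoded subunits was 18.2, 16.2 and 9.74 in WT and 7.95, 9.13 and 8.13 in Mc4r KO. All Mc4r KO libraries were below WT, and WT replicate 3 was nearer to them than to the other WT libraries. On the log2 scale the means were 3.83 ± 0.479 and 3.07 ± 0.108 (SD, n = 3), a difference of -0.76 (two-sided exact permutation p = 0.1, the smallest possible), and -1.03 without WT replicate 3. Over the 6 single-value comparisons tested here, the Benjamini-Hochberg adjusted exact permutation p was 0.15 for the 4 at p = 0.1.

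The nuclear genes that copy and transcribe the MT chromosome, and those that process its RNA, showed no call. Of 17 genes of transcription and replication, 11 were above 0 and 6 below (median 0.08). Among those with a mean FPKM of at least 1, the largest values were those of the topoisomerase Top1mt, with 2.43, 2.45 and 2.13 FPKM in WT and 1.86, 1.74 and 1.46 in Mc4r KO (log2 fold change -0.45, SE 0.14, limma adjusted p = 0.142), of Rnaseh1 (0.29) and of the ribosome assembly factor Mterf3 (-0.28). Of 24 genes of RNA processing and stability, 11 were above 0 and 13 below (median -0.01). Among those with a mean FPKM of at least 1, the largest values were those of Prorp, Trmt10c and Trnt1. The 5′ nuclease of tRNAs, Prorp, had 1.69, 2.30 and 1.16 FPKM in WT and 1.30, 1.12 and 0.980 in Mc4r KO (-0.52, SE 0.25, limma adjusted p = 0.294), its partner Trmt10c differed by -0.34 and Trnt1, which adds the CCA end, by -0.32.

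Markers of other cell types gave no call either. Of 8 fibroblast markers 6 were below 0 (median -0.33), of 8 endothelial markers 5 were above 0 (median 0.03), and of 12 cardiomyocyte markers 9 were above 0 (median 0.18), which became 6 (median -0.01) with the sum outside the MT chromosome set equal. All 8 erythrocyte markers were below 0 (median -1.62) and 6 of 7 atrial markers were below 0 (median -2.32). Of the skeletal muscle markers 5 of the 7 tested were above 0 (median 0.15), 1 adipocyte marker passed the filter on low values (-2.21), and the 3 nuclear-retained RNAs tested had a median of -0.17. Their part in the MT values was not tested.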

How the data were processed

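The authors deposited FPKM per gene and library, with gene length, position and biotype. Over genes read in all 6 libraries, the median ratio of a library to the geometric mean across libraries was 1.006 in each. The deposited values were thus already scaled to a common median ratio, and not to the reads of each library alone. That scaling largely sets the median log2 fold change over all genes as deposited. Per the study's methods and the submitters' processing notes, reads of NEBNext Ultra libraries were aligned with HISAT2 2.0.5 to mm10 and counted with featureCounts. The use of strand and the annotation release are not given in the sources used here. In each library, FPKM multiplied by length fell on whole multiples of a single step (tolerance 0.1 read), so that read numbers could be recovered. Limma 3.58.1 (R 4.3.3) was run on log2(FPKM + 0.1) with the empirical Bayes trend, on 18035 genes whose mean FPKM reached 0.1, first as deposited and then with each library's MT sum set equal. Fold changes on this scale understate those of low genes. Genes were called at an adjusted p below 0.05 where the log2 fold change exceeded 0.75 in size. Single values of 3 against 3 mice used the exact permutation test (scipy). The limma steps were tested on simulated data. Levels of short genes such as tRNAs rest on few reads. The SEs are those of limma over the 6 libraries, and the SDs are over the 3 libraries of a group. The GENCODE M21 tables held 99.8% of the identifiers. All 13 protein and 2 rRNA genes were named, the tRNA genes that were called or were among the 6 with most reads, and, where no gene of a nuclear list passed, the 3 with the largest change at a mean FPKM of at least 1. Members and lists were chosen with earlier results of these data known. Figures used matplotlib.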

Additional observations from a re-analysis of the deposited data

How the results depend on the processing

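The 2 MT genes called as deposited became 1 with a pseudocount of 0.01, with no filter on low values and with no trend. Those settings called 84 of 18035, 22 of 26539 and 21 of 18035 genes. The MT count became 3 with a mean FPKM of at least 1 (mt-Rnr1 gained), 5 with array weights and 4 with limma voom on the recovered reads. Over all genes, 147 of 11297, 435 of 18035 and 324 of 18035 were then called. Leaving out 1 library gave 1 to 12 MT genes, the 12 being without WT replicate 3, where 726 of 17966 genes were called. The 2 called as shares of the MT sum became 1 with no trend and with robust empirical Bayes (mt-Tg lost). Those settings called 28 and 109 of 18035 genes. The MT count became 3 with a pseudocount of 1 (mt-Atp8 gained) and 14 with array weights, where 1518 and 5950 of 18035 genes were called. Leaving out 1 library gave 2 to 8 MT genes. The highest count was again without WT replicate 3, where 4210 of 17966 genes were called. The replicate number as a block left 2 and 2, while calls over all genes went from 83 to 11 and from 77 to 99. The numbers did not pair the libraries (correlations of same-numbered deviations -0.14, 0.0074 and -0.082), and no library correlated best with its own number. The shares and ratios kept their direction under the alternatives run. Leaving out 1 library gave -14.0 to -7.87 points for the MT share of FPKM, -9.58 to -5.28 points for that of reads, and -1.03 to -0.58 for the log2 ratio to nuclear subunits.

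Among uncalled genes the sign changed as follows. As deposited, quantile normalization gave -0.055 for mt-Co3, 0.17 for mt-Nd4 and -0.13 for mt-Tl1, scaling outside the MT chromosome gave -0.041 for mt-Te and -0.12 for mt-Tl1 (it moved the median of all genes to -0.19), and array weights gave 0.026 for mt-Atp6. Leaving out 1 library gave -0.26 to 0.13 for mt-Atp6, -0.030 to 0.64 for mt-Co3, -0.037 to 0.73 for mt-Nd4l, -0.056 to 0.32 for mt-Te and -0.038 to 0.17 for mt-Tl1. As shares, array weights gave -0.097 for mt-Tp and -0.14 for mt-Tc, the sum of the 13 protein genes gave -0.0026 for mt-Tc, and the chromosome 1 copy added to its MT gene, an alternative chosen after seeing the data, gave 0.060 for mt-Nd3 and -0.0088 for mt-Tc. Leaving out 1 library gave -0.062 to 0.088 for mt-Tp, -0.22 to 0.15 for mt-Tc and -0.31 to 0.0090 for mt-Tn. The cause was not tested. With 3 mice in a group, the limma p-values set the group difference against the spread within the groups of these 6 libraries. The exact permutation p for 3 against 3 can be no lower than 0.1.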
